A study of Mus musculus with 10 samples.

Results

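Ion channel genes of the voltage-gated and related families were followed in hippocampus from C57BL/6 males at 30 months of age, of which 5 were fed a control diet and 5 were calorie restricted. Every mouse had an Affymetrix array of its own. The sources used here do not say what the diets held, how strong the restriction was or when it began. Members were all probe sets, groups of short probes for a transcript, whose annotation gave exactly 1 gene symbol starting with Kcn, Cacn, Scn or Hcn. There were 75 such probe sets for 62 genes, out of 12422 probe sets that were no array controls. They comprised 51 potassium channel, 13 calcium channel, 8 sodium channel and 3 HCN channel probe sets, or 62 for pore-forming and 13 for auxiliary subunits.

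Voltage-gated channels open in response to the membrane potential and set how neurons fire. Sodium channels carry the upstroke of the action potential, potassium channels repolarise the membrane and limit repetitive firing, and calcium channels couple depolarisation to transmitter release and gene expression. HCN channels open on hyperpolarisation and carry a pacemaker current. The pore is formed by alpha subunits, while auxiliary subunits alter the trafficking and gating of the pore. In the hippocampus, A-type potassium currents and HCN currents are known for shaping how pyramidal cell dendrites integrate their inputs. Inward rectifier and tandem-pore potassium channels, which have no voltage sensor of this kind, were included because their symbols start with Kcn.

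The arrays differed between diets in ways that touch every comparison. The log2 difference between 3' and 5' control signals of Gapdh and Actb, which grows as RNA is broken or incompletely copied, was -0.12 to 0.45 in control mice. It was 0.79, 0.78, 5.20, 1.52 and 6.11 in calorie restricted replicates 1 to 5, so that replicates 3 and 5 stood apart. Spike-in control signal was also higher in every calorie restricted array, at 12.41 to 13.67 against 10.50 to 11.80 (log2). The diets overlapped in none of these measures (exact two-sided permutation p = 0.00794, the smallest that 252 splits allow, and adjusted p = 0.00794 over 3 measures). The third measure, the median log2 signal of an array, was 7.79 to 7.92 in control and 7.25 to 7.69 in calorie restricted arrays, with the same p. Fits used the 3' to 5' difference, called RNA quality, as a covariate, alone or with spike-in signal, or left out replicates 3 and 5. The median log2 signal was not a covariate. Beyond these fits and the other scalings given below, the part of the measures in the results was not tested. Of 6 tested neuronal marker genes 0 were higher and 2 lower, and their summed signal over 7 genes ran from 26267 to 36586 in control and 31317 to 40596 in calorie restricted arrays, with 0 values under 1. Of 5 tested markers of hippocampal neurons 1 was higher and 1 lower, while Prox1, a marker of dentate granule cells, was dim, with mean log2 signals of 6.64 and 5.06. Of other cell types, 2 of 5 tested astrocyte markers, 2 of 6 oligodendrocyte, 2 of 6 microglial, 1 of 3 pericyte and smooth muscle, 1 of 3 choroid plexus and 0 of 4 endothelial markers were lower and 0 were higher, where 7.74% of all tested probe sets were lower and 4.11% higher. Summed microglial signal ran from 4828 to 7298 in control and 2593 to 5798 in calorie restricted arrays, and the part of these shifts in the channel results was not tested. In whole tissue, fewer cells of a type and less RNA per cell cannot be told apart.

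Each change is a log2 difference, restricted minus control, from which the median over all probe sets tested (-0.15) was taken off. Standard errors (SE) and adjusted p-values come from limma, which tested the change before that step. Of the 75 channel probe sets, 38 for 32 genes had a mean signal over both diets that passed the filter on dim probe sets. In calorie restricted mice 2 of these 38 rose, 9 fell and 27 did not pass. The split moved with the scaling: 4 were higher and 5 lower with each array centred on its median, and 2 and 5 under quantile normalization. Over all tested probe sets it was 306 higher and 577 lower, against 575 and 266 with median centring and 321 and 282 under quantile normalization. The 2 that rose were calcium channel subunits, Cacna1g and Cacng2. The 9 that fell were Kcna1, Kcnd2, Kcns2, Kcnc1 and Kcnk7 among potassium channels, Cacna2d1, Cacnb2 and Cacna1c among calcium channels, and Scn8a among sodium channels. Cacna1g passed the filter through its calorie restricted arrays, and Kcnd2, Kcns2 and Kcnc1 through their control arrays. Their means in the other diet lay under 6.85, the lowest mean of any tested probe set. The counts and shares given here include them. The share past the threshold was 28.9% of the 38, beside 11.8% of all 7453 tested probe sets; 23.7% fell and 5.26% rose, beside 7.74% and 4.11%. The median relative change was -0.30 over the 38, with 26 below 0 and 12 above. All arrays of one diet lay above all of the other in 12 of the 38, 3 of them higher and 9 lower in calorie restricted mice. Over all tested probe sets 14.3% were separated in this way, 4.96% higher and 9.35% lower.

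The count of 11 moved with single arrays. Leaving out control replicates 1 to 5 in turn gave 5, 4, 3, 6 and 7, and calorie restricted replicates 1 to 5 gave 9, 16, 7, 8 and 10. Over all tested probe sets the share past the threshold was 5.55%, 3.60%, 3.65%, 3.88% and 7.33% without these control replicates. It was 13.2%, 17.1%, 5.43%, 7.59% and 12.2% without these calorie restricted replicates. Without calorie restricted replicates 3 and 5 together, 7 channel probe sets passed, of which 6 were among the 11, beside 10.8% of all tested probe sets. With RNA quality as a covariate 2 of 38 passed, Kcns2 and Cacng2, beside 4.47% of all 7453 tested probe sets. Adding spike-in signal left 0 in limma, and 6 had an unadjusted p under 0.05. In that last fit limma called 0 of all 7453 probe sets, 907 of which had an unadjusted p under 0.05. Both covariates together accounted for most of the variation in diet (R2 = 0.851), and RNA quality alone for less (R2 = 0.411).

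**Figure D1:**
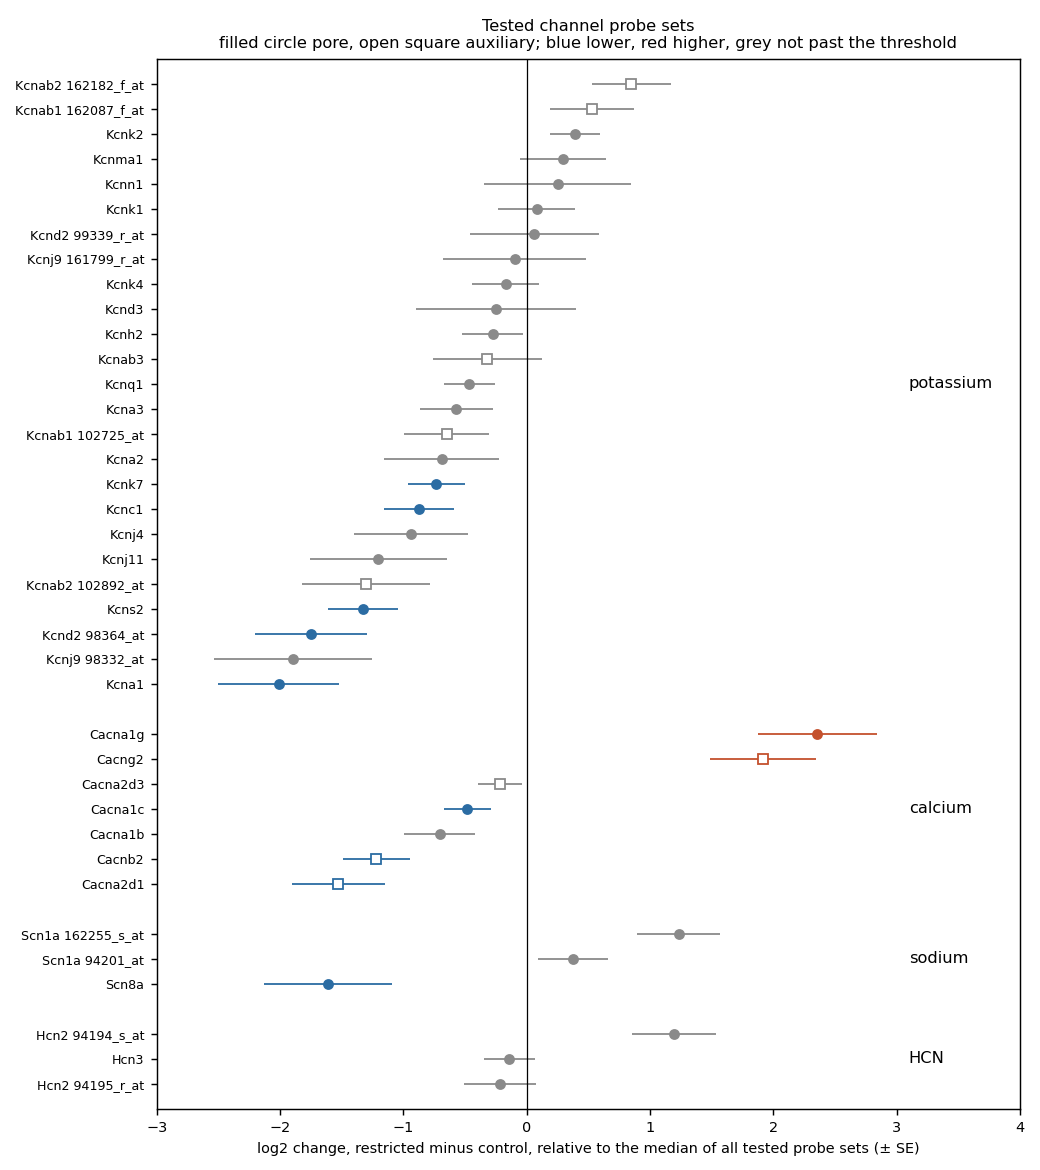
Relative log2 change of the 38 tested channel probe sets, with the SE as bars, by channel group; filled circles are pore subunits, open squares auxiliary subunits. Both red symbols, Cacna1g and Cacng2, lie in the calcium group, and the 9 blue symbols lie below 0 in the potassium, calcium and sodium groups.

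The calcium channel group held both rises and 3 of the 9 falls. Cacna1g encodes a T-type channel, which opens at low voltages and supports burst firing. Its log2 signal was 6.79, 7.50, 5.13, 5.52 and 5.44 in control mice and 7.53, 8.02, 8.86, 8.11 and 8.88 in calorie restricted mice. No arrays overlapped, but the highest control array, at 7.50, lay just under the lowest calorie restricted one, at 7.53. Means were 6.08 ± 1.02 and 8.28 ± 0.58 (SD, n = 5 each), a relative change of 2.36 ± 0.48 (SE; limma adjusted p = 0.0185), or 5.13-fold. The control mean lay under 6.85, the lowest mean of any tested probe set, so the size of the change rests on dim signals. The probe set passed the filter through its calorie restricted arrays. The change was 1.68 with RNA quality as a covariate (adjusted p = 0.118) and -0.0070 with spike-in signal added (adjusted p = 0.966). It passed in each of the 10 fits that left out a single array. The highest arrays were calorie restricted replicates 3 and 5, and without both of them Cacna1g lay under the filter and was not tested.

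Cacng2 encodes stargazin, a gamma subunit that also escorts AMPA-type glutamate receptors to the synapse. Its signal was 6.89, 8.25, 7.60, 5.60 and 7.83 in control mice and 9.22, 9.49, 8.87, 8.93 and 8.48 in calorie restricted mice. Every calorie restricted array was above every control array, and the control arrays were the more spread out, with an SD of 1.04 against 0.38. The relative change was 1.92 ± 0.43 (SE; adjusted p = 0.0255), or 3.78-fold. It was 2.15 with RNA quality as a covariate and passed there (adjusted p = 0.0488), and it was 2.09 without calorie restricted replicates 3 and 5 (adjusted p = 0.0318). It missed the threshold without control replicate 1 or 3 or calorie restricted replicate 3, at 1.83, 2.01 and 1.96 (adjusted p = 0.0589, 0.0533 and 0.0522).

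Of the other 3 tested auxiliary subunits of calcium channels 2 fell. Cacna2d1 encodes an alpha2delta subunit, which brings channels to the surface of presynaptic terminals and is the binding site of gabapentin. Its signal was 8.88, 9.06, 9.22, 8.92 and 9.21 in control mice and 7.87, 8.59, 6.77, 7.45 and 6.20 in calorie restricted mice. All calorie restricted arrays lay under the control arrays, with replicates 5 and 3 the lowest. It fell by 1.53 ± 0.38 (SE; adjusted p = 0.0205). It fell by 0.98 without replicates 3 and 5 (adjusted p = 0.0229), and the RNA quality covariate left -0.68 (adjusted p = 0.120). Without control replicate 2 or 3 it had -1.53 and -1.49 and missed the threshold (adjusted p = 0.0539 and 0.0533).

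Cacnb2 encodes a cytoplasmic beta subunit, which holds the pore subunit at the membrane. Its signal was 9.57, 9.65, 9.73, 9.31 and 9.92 in control mice and 8.86, 8.57, 7.75, 8.66 and 7.48 in calorie restricted mice. Here too the diets did not overlap and replicates 3 and 5 were the lowest. It fell by 1.22 ± 0.27 (SE; adjusted p = 0.0145), passed in all 10 fits without a single array, and fell by 0.83 without replicates 3 and 5 (adjusted p = 0.0117). With RNA quality as a covariate it had -0.67 (adjusted p = 0.0660). Cacna2d3, another alpha2delta subunit, had means of 10.34 and 9.97 and a change of -0.22 ± 0.18 (SE), and did not pass (adjusted p = 0.179).

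Among the other pore subunits of calcium channels, Cacna1c encodes an L-type channel that links activity to transcription. Its signal was 9.10, 9.54, 9.21, 9.20 and 9.91 in control mice and 8.84, 8.71, 8.66, 8.92 and 8.64 in calorie restricted mice. Control arrays were all higher and the calorie restricted arrays were close together, with an SD of 0.12. It fell by 0.48 ± 0.19 (SE; adjusted p = 0.0496), and missed the threshold in all 10 fits without a single array, with changes from -0.56 to -0.36 (adjusted p from 0.0593 to 0.114). Its probe set can match several transcripts. Cacna1b, an N-type channel of presynaptic terminals, had -0.71 ± 0.29 (SE) with overlapping arrays and did not pass (adjusted p = 0.0689), though it passed without control replicate 5, at -0.94, or calorie restricted replicate 2, at -0.81 (adjusted p = 0.0343 and 0.0467). The RNA quality covariate left -0.32 (adjusted p = 0.451).

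**Figure D2:**
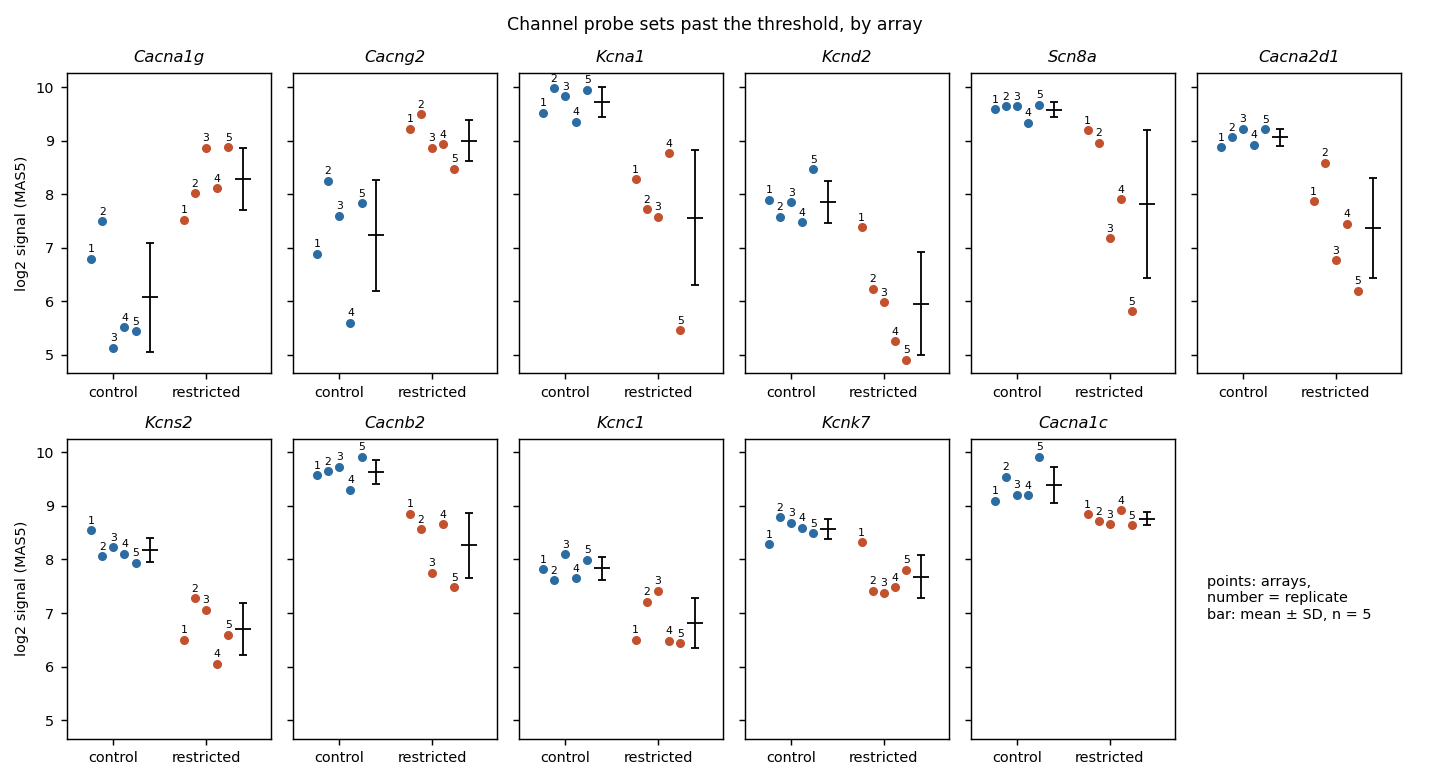
Log2 signal of the 11 channel probe sets past the threshold, 1 panel per gene; points are arrays with their replicate number, bars the mean and SD of 5 arrays. In 10 of the 11 panels the diets do not overlap, the exception being Kcnk7, and in 7 of the 9 that fell the lowest array is calorie restricted replicate 5.

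Potassium channels included 5 probe sets that fell, 0 that rose and 20 that did not pass among 25 tested. All 5 that fell were pore subunits. Kcna1 encodes a shaker-type channel found along axons, which limits repetitive firing. Its signal was 9.52, 9.98, 9.83, 9.36 and 9.95 in control mice and 8.28, 7.72, 7.58, 8.77 and 5.46 in calorie restricted mice. Control arrays were all higher, and calorie restricted replicate 5 lay more than 2 log2 units under the other arrays. Kcna1 fell by 2.01 ± 0.49 (SE; adjusted p = 0.0208), and by 1.36 without calorie restricted replicates 3 and 5 (adjusted p = 0.00933). With RNA quality as a covariate it had -1.04 (adjusted p = 0.137), and without control replicate 2 or 3 it had -1.95 and -1.99 (adjusted p = 0.0558 and 0.0533). Its relatives Kcna2 and Kcna3 had -0.69 ± 0.47 and -0.57 ± 0.30 (SE), with overlapping arrays and calorie restricted means under the lowest mean tested, and did not pass (adjusted p = 0.234 and 0.119).

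Kcnd2 encodes the pore of the A-type current of hippocampal dendrites. On one of its probe sets the signal was 7.90, 7.58, 7.85, 7.48 and 8.46 in control mice and 7.39, 6.23, 5.98, 5.26 and 4.91 in calorie restricted mice. There was no overlap, although calorie restricted replicate 1 was near the control range. This probe set fell by 1.75 ± 0.45 (SE; adjusted p = 0.0236), to a mean of 5.95 that lay under the lowest mean tested. It had -1.22 with the RNA quality covariate (adjusted p = 0.165) and -1.45 without replicates 3 and 5 (adjusted p = 0.0525). Of the 10 fits without a single array it passed in 4 and lay under the filter in 4, and it had -1.82 and -1.84 without control replicate 2 or 4 (adjusted p = 0.0550 and 0.0501). The gene's other probe set had 0.06 ± 0.52 (adjusted p = 0.922), as described with the paired probe sets. Kcnd3, a related pore subunit, had -0.25 ± 0.65 and did not pass (adjusted p = 0.695).

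Kcns2 encodes a modifier subunit, which forms no channel alone but alters the gating of delayed rectifier channels. Its signal was 8.55, 8.06, 8.23, 8.11 and 7.94 in control mice and 6.50, 7.28, 7.07, 6.05 and 6.59 in calorie restricted mice. The diets did not overlap. The lowest array was calorie restricted replicate 4, whose 3' to 5' difference was 1.52, against -0.12 to 0.45 in control arrays. Kcns2 fell by 1.33 ± 0.29 (SE; adjusted p = 0.0121), and passed in all 10 fits without a single array, without replicates 3 and 5 (-1.46, adjusted p = 0.0166) and under the RNA quality covariate (-1.44, adjusted p = 0.0439). It had -2.27 with spike-in signal added and did not pass there (adjusted p = 0.231). The mean of 6.70 in calorie restricted mice lay under the lowest mean tested.

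Kcnc1 encodes a fast delayed rectifier that lets interneurons fire at high rates. Its signal was 7.82, 7.61, 8.10, 7.65 and 7.995 in control mice and 6.50, 7.21, 7.42, 6.48 and 6.44 in calorie restricted mice, without overlap. It fell by 0.87 ± 0.29 (SE; adjusted p = 0.0394), to a mean of 6.81 that lay under the lowest mean tested, and had -0.98 with the RNA quality covariate (adjusted p = 0.116). It missed the threshold without any single control array or without calorie restricted replicate 1, 4 or 5, with changes from -0.93 to -0.78 (adjusted p from 0.0555 to 0.0941). Under quantile normalization Kcnc1, Kcnk7, Scn8a and Cacna1c missed the threshold, at -0.63, -0.57, -1.49 and -0.44 (adjusted p = 0.154, 0.125, 0.0578 and 0.149).

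Kcnk7 encodes a tandem-pore channel subunit for which little current has been recorded. Its signal was 8.28, 8.79, 8.68, 8.60 and 8.49 in control mice and 8.32, 7.42, 7.38, 7.48 and 7.81 in calorie restricted mice. Calorie restricted replicate 1 lay within the control range and the other 4 arrays lay under it. Kcnk7 fell by 0.73 ± 0.23 (SE; adjusted p = 0.0321). It missed the threshold without any single control array or without calorie restricted replicate 3 or 4, with changes from -0.81 to -0.65 (adjusted p from 0.050 to 0.0820). The other tested tandem-pore channels, which carry the resting potassium leak, were Kcnk1, Kcnk2 and Kcnk4, at 0.08 ± 0.31, 0.39 ± 0.20 and -0.17 ± 0.27 (SE), and did not pass (adjusted p = 0.893, 0.439 and 0.431).

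Inward rectifiers, which hold the resting potential and include the G protein-gated and ATP-sensitive channels, had 4 tested probe sets out of 15. In limma 0 of the 4 passed, and 3 had an unadjusted p under 0.05, beside 31.6% of all tested probe sets. Kcnj9, a subunit of G protein-gated channels, had the lowest value on one probe set. Its signal there was 8.88, 9.59, 9.30, 9.65 and 8.87 in control mice and 8.51, 8.95, 5.26, 7.70 and 5.62 in calorie restricted mice. Replicates 3 and 5 were far under the rest and replicate 2 lay within the control range. The change was -1.90 ± 0.64 (SE; adjusted p = 0.0555), and it passed without calorie restricted replicate 1 or 2, at -2.22 and -2.32 (adjusted p = 0.0346 and 0.0230). It was -0.76 without replicates 3 and 5 (adjusted p = 0.0804) and -0.23 with the RNA quality covariate (adjusted p = 0.593). The second probe set of Kcnj9 had -0.10 ± 0.58 (adjusted p = 0.787). Kcnj11, the pore of ATP-sensitive channels, had -1.20 ± 0.55 and Kcnj4 had -0.94 ± 0.46, both with overlapping arrays (adjusted p = 0.118 and 0.130).

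The other tested potassium channels did not pass. Kcnq1, a slow delayed rectifier, had control signals of 9.45 to 9.94 and calorie restricted signals of 8.69 to 9.45. Its arrays did not overlap, by a narrow margin, and its change was -0.47 ± 0.21 (SE; adjusted p = 0.0665). It passed without calorie restricted replicate 2, at -0.57 (adjusted p = 0.0329), and had -0.21 with the RNA quality covariate (adjusted p = 0.421). Its probe set is marked by the letter r in its identifier, and its number of probes is not known here. Kcnh2, an ether-a-go-go related channel, had -0.28 ± 0.25 (adjusted p = 0.249). The calcium-activated channels Kcnma1, of large conductance, and Kcnn1, of small conductance, had 0.30 ± 0.35 and 0.25 ± 0.60 (adjusted p = 0.800 and 0.927). These are slow or fast brakes that follow calcium entry, and their arrays overlapped.

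Auxiliary subunits of potassium channels were represented by the cytoplasmic beta subunits Kcnab1, Kcnab2 and Kcnab3, which bind shaker-type channels. Of their 5 tested probe sets limma called 0, and 2 had an unadjusted p under 0.05, beside 31.6% of all tested probe sets. Kcnab3 had -0.32 ± 0.45 (SE; adjusted p = 0.487). Kcnab1 had -0.65 ± 0.35 on one probe set and 0.53 ± 0.34 on the other (adjusted p = 0.134 and 0.468). For Kcnab2 one probe set had 11.31, 11.52, 11.90, 11.85 and 11.24 in control mice and 11.03, 10.58, 9.36, 11.45 and 8.10 in calorie restricted mice. Replicates 3 and 5 were far under the rest there and replicate 4 lay within the control range. The change was -1.30 ± 0.52 (SE; adjusted p = 0.0820), passed without calorie restricted replicate 4, at -1.63 (adjusted p = 0.0493), and was -0.02 with the RNA quality covariate. The other Kcnab2 probe set had 0.85 ± 0.32 (adjusted p = 0.158), with its highest array, at 12.51, again replicate 5.

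Sodium channels had 3 tested probe sets for 2 genes, of which 1 fell. Scn8a encodes the main sodium channel of the axon initial segment in mature neurons. Its signal was 9.59, 9.64, 9.65, 9.34 and 9.67 in control mice and 9.19, 8.96, 7.18, 7.90 and 5.81 in calorie restricted mice. The diets did not overlap, but calorie restricted replicates 1 and 2 lay just under the lowest control array and replicates 5 and 3 were the lowest. The SD was 0.14 in control and 1.38 in calorie restricted mice. Scn8a fell by 1.61 ± 0.52 (SE; adjusted p = 0.0465). It had -0.78 without replicates 3 and 5 (adjusted p = 0.0514), and the RNA quality covariate left -0.32 (adjusted p = 0.447). It missed the threshold without any single control array or without calorie restricted replicate 3 or 4, with changes from -1.67 to -1.45 (adjusted p from 0.0766 to 0.105). Another probe set of Scn8a was the dimmest of all members, at means of 2.21 and 2.45, and was not tested.

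Scn1a encodes a sodium channel on which fast-spiking interneurons rely. On its brighter probe set the signal was 10.53, 10.17, 10.23, 10.11 and 10.50 in control mice and 11.38, 10.64, 11.10, 10.996 and 12.82 in calorie restricted mice. The diets did not overlap, and replicate 5 was the highest. The change was 1.23 ± 0.34 (SE; adjusted p = 0.0549) and did not pass. It was 0.81 without replicates 3 and 5 and passed there (adjusted p = 0.0363), as it did without calorie restricted replicate 2 or 5, at 1.43 and 0.85 (adjusted p = 0.0292 and 0.0231). The RNA quality covariate left 0.54 (adjusted p = 0.427). The other probe set of Scn1a had 0.37 ± 0.29 with overlapping arrays (adjusted p = 0.618), and the direction of that change turned with RNA quality as a covariate, at -0.23.

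HCN channels had 3 tested probe sets, of which limma called 0. An unadjusted p under 0.05 was found for 1 of them, beside 31.6% of all tested probe sets. Hcn2 encodes a pacemaker channel that responds to cyclic AMP. One of its probe sets had 8.31, 8.61, 9.75, 9.64 and 8.90 in control mice and 9.76, 9.46, 10.07, 10.07 and 11.04 in calorie restricted mice, with overlap through replicate 2. Its change was 1.19 ± 0.34 (SE; adjusted p = 0.0645), and it passed without that replicate, at 1.35 (adjusted p = 0.0404). It was 0.83 without replicates 3 and 5 (adjusted p = 0.162) and 0.66 with the RNA quality covariate (adjusted p = 0.386). The other Hcn2 probe set had -0.22 ± 0.29 and Hcn3, a slower channel of the same family, had -0.14 ± 0.21 (adjusted p = 0.397 and 0.340). Both turned to 0.22 and 0.21 with RNA quality as a covariate.

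Set side by side, the channel groups differed in their counts but each was small. Of 25 tested potassium channel probe sets 0 rose and 5 fell, with a median change of -0.47. Of 7 calcium channel probe sets 2 rose and 3 fell, with a median of -0.48. The 3 sodium channel probe sets ran from -1.61, for Scn8a, to 1.23, with a median of 0.37. The 3 HCN probe sets had a median of -0.14. Over all tested probe sets 4.11% rose, 7.74% fell and the median was 0 by construction. The median of the potassium group was -0.29 under quantile normalization, -0.31 without replicates 3 and 5 and -0.14 with RNA quality as a covariate. That of the calcium group was -0.44, -0.47 and -0.32 in these 3 fits. The sodium median turned to -0.04 without replicates 3 and 5 and to -0.23 with RNA quality as a covariate. In these fits, as with all arrays, it was the value of the dimmer Scn1a probe set alone.

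Pore and auxiliary subunits had like medians. Of 29 tested pore probe sets 1 rose and 7 fell, with a median of -0.28 and a range from -2.01 to 2.36. Of 9 tested auxiliary probe sets 1 rose and 2 fell, with a median of -0.32 and a range from -1.53 to 1.92. All 3 auxiliary probe sets past the threshold were calcium channel subunits, 3 of the 4 tested. The medians were -0.16 for pore and -0.02 for auxiliary subunits with RNA quality as a covariate, and -0.26 and 0.41 with spike-in signal added, so the auxiliary median turned direction there. With 9 auxiliary probe sets, 5 of them of beta subunits of potassium channels, the comparison has little precision.

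Dim probe sets had lower relative changes over the whole array, and most channel members were dim or of middle brightness. The median relative change was -0.26, -0.15, -0.07, 0.08 and 0.28 over 5 equal classes of all tested probe sets, from the dimmest to the brightest. The channel members in these classes numbered 8, 8, 10, 7 and 5, with medians of -0.63, -0.53, -0.68, -0.14 and 0.08. All 11 members past the threshold lay in the 3 dimmer classes, where 7.78%, 11.3% and 10.9% of all probe sets fell and 1.27%, 1.68% and 2.08% rose. The fall of 3, 2 and 4 members and the rise of 1, 1 and 0 in these classes are to be read against those shares.

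**Figure D3:**
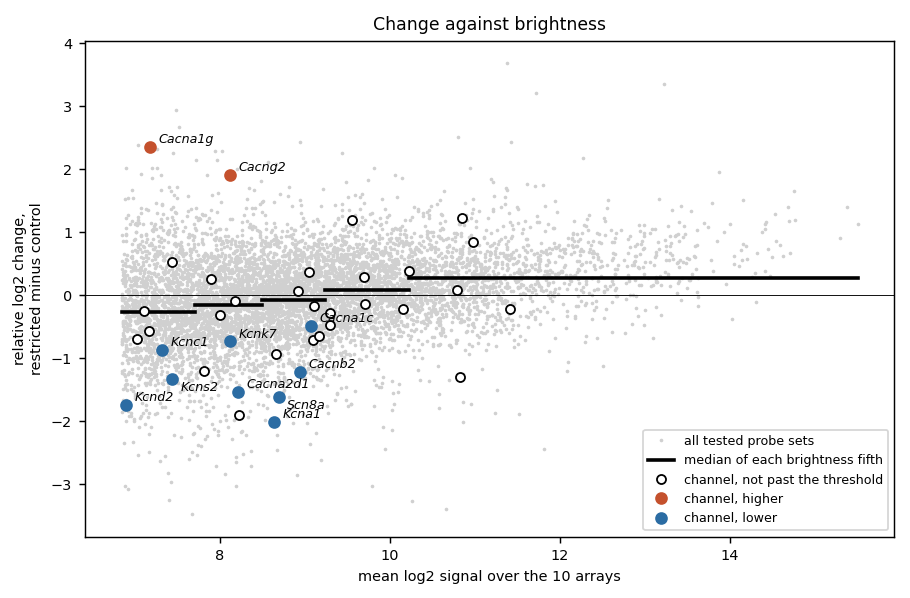
Relative log2 change against mean log2 signal over 10 arrays for all 7453 tested probe sets (grey), with the median of each of 5 brightness classes as a black bar and channel members as circles. The bars climb from -0.26 to 0.28, and the 9 blue members lie under the bar of their class.

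The spread between calorie restricted mice was the larger one for most members. The SD of the calorie restricted arrays exceeded that of the control arrays in 27 of 38 members, or 71.1%, beside 76.0% of all tested probe sets. It did so in 20 of 25 potassium channel probe sets and 2 of 7 calcium channel probe sets. Calorie restricted replicate 5 was the lowest of all 10 arrays in 17 of the 38 members, or 44.7%, beside 29.6% of all tested probe sets. Replicates 3 and 5 together were lowest in 60.5% of members and 38.1% of all tested probe sets.

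**Figure D4:**
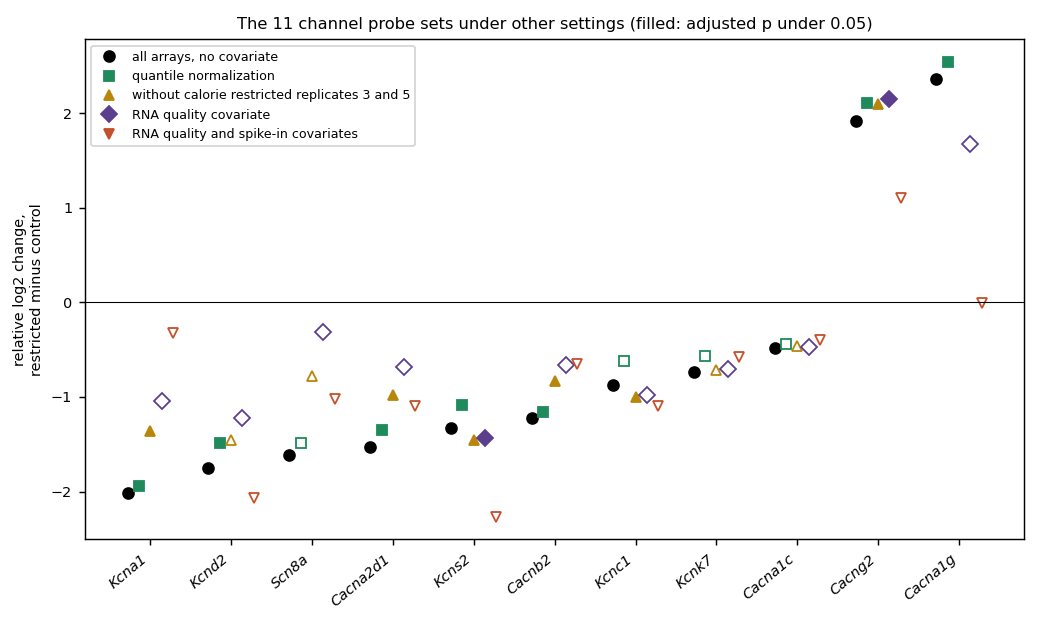
Relative log2 change of the 11 channel probe sets under 5 settings; filled symbols passed at an adjusted p under 0.05. Kcns2 and Cacng2 passed in each setting shown except with both covariates, where all 11 symbols are open; Cacna1g has no symbol without replicates 3 and 5 because it then lay under the filter.

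Several genes were measured by a pair of probe sets, and some of these parted. How often pairs part over the whole array was not examined. Of 62 member genes 13 had a pair, and in 6 of them both were tested. The signs of the relative changes were opposite in 4 of the 6, Hcn2, Kcnab1, Kcnab2 and Kcnd2, and the same in 2, Kcnj9 and Scn1a. The second probe set of Kcnd2 had 0.06 ± 0.52 (SE), and -0.09 before the median over all tested probe sets was taken off. By that measure both Kcnd2 changes were below 0, but that of the second probe set was far smaller than its SE and gave no direction. For Kcnab2 the log2 gap between its probe sets was -0.93 ± 0.13 (SD, n = 5) in control mice and 1.22 ± 2.07 in calorie restricted mice, without overlap (exact permutation p = 0.00794, adjusted p = 0.0238 over 6 genes). The Kcnj9 gap was -0.95 ± 0.66 and 0.84 ± 0.99, and its arrays did not overlap either (exact permutation p = 0.00794; after adjustment, 0.0238). For Scn1a it was 1.37 ± 0.31 and 2.23 ± 0.32 (exact permutation p = 0.0159, adjusted p = 0.0317). The gaps of Hcn2, Kcnd2 and Kcnab1 changed by 1.41, 1.81 and 1.18 and did not pass after adjustment (exact permutation, adjusted p = 0.0714, 0.0857 and 0.119).

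The Kcnd2 pair lay furthest apart in calorie restricted replicate 5. Kcnd2 had 8.41, 7.47, 8.74, 8.69 and 11.04 on the second probe set in calorie restricted mice, against 8.24 to 9.56 in control mice. Without replicate 5 the change of that probe set was -0.51, and without replicates 3 and 5 it was -0.66, in the direction of the probe set that fell. For Kcnab2 and Scn1a the gap without replicates 3 and 5 was 0.76 and 0.84, against 2.15 and 0.86 with all arrays. In each of the 6 pairs at least 1 probe set has s, f or r in its identifier, of which s and f can match several transcripts. A value of these genes depends on the probe set used.

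**Figure D5:**
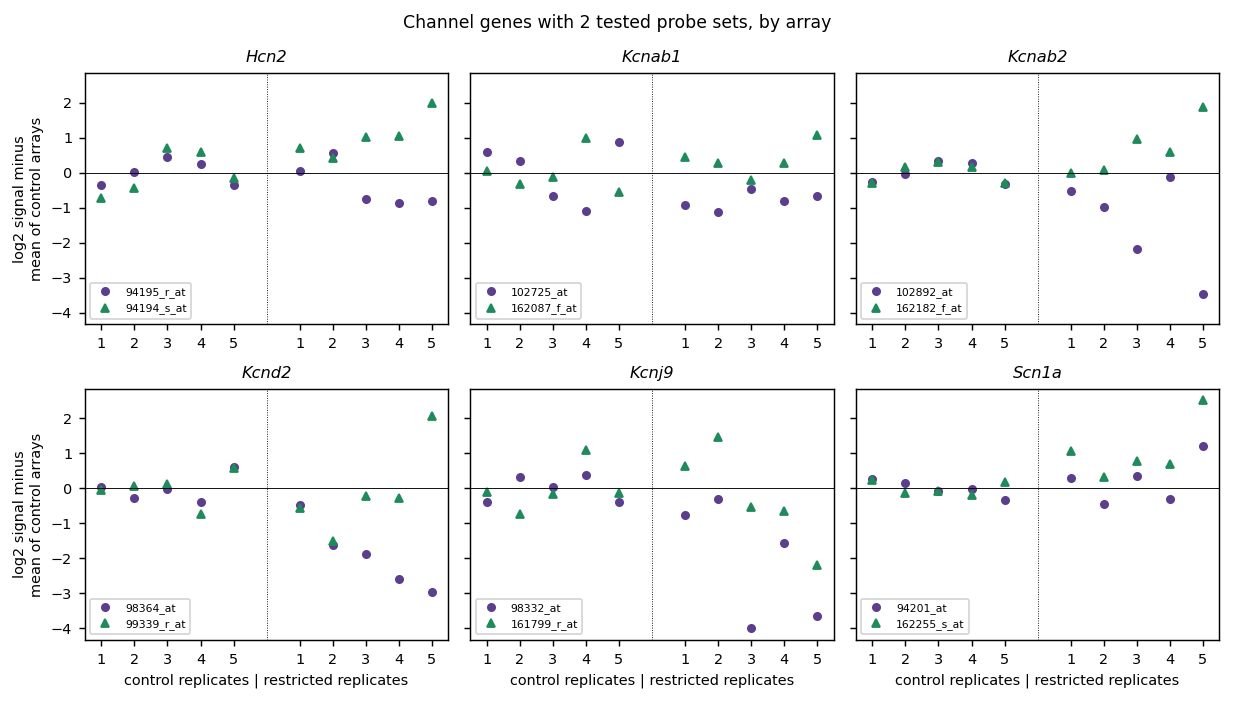
Log2 signal minus the control mean for the 6 channel genes with a pair of tested probe sets, by array; circles are the probe set with the lower change, triangles the other. The symbols of Kcnab2, Kcnd2 and Hcn2 lie furthest apart in calorie restricted replicate 5, and those of Kcnj9 in replicate 3.

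Of 46 genes whose products bind, anchor or regulate these channels, 29 were on the array and 24 were tested, taking the brightest probe set of each gene; 2 rose and 2 fell, with a median change of 0.11, beside 4.11% and 7.74% of all tested probe sets. Gnb1, a G protein beta subunit whose free form opens G protein-gated potassium channels, had means of 10.18 and 13.25 on that probe set and rose by 3.22 ± 0.33 (SE; adjusted p = 0.00132), while 2 dimmer probe sets of Gnb1 had 0.03 and -0.79 and did not pass (adjusted p = 0.794 and 0.606). Dlg1, a scaffold of shaker-type channels, had 10.50 and 11.06 and rose by 0.71 ± 0.15 (adjusted p = 0.0385). It did not pass with RNA quality as a covariate (adjusted p = 0.164) or without control replicate 1, 2, 3 or 4 or calorie restricted replicate 1 or 3 (adjusted p from 0.0516 to 0.0964). Fgf13, which binds the tail of sodium channels, had 9.01 and 6.82, the latter under the lowest mean tested, and fell by 2.04 ± 0.29 (adjusted p = 0.00442). Nrcam, a cell adhesion molecule of the axon initial segment, had 10.37 and 9.38 and fell by 0.84 ± 0.19 (adjusted p = 0.0116). Of the 7 tested sodium channel partners 2 fell and 0 rose, and of 10 potassium channel partners 0 fell and 2 rose. Of 7 calcium channel partners 0 passed in limma, where 3 had an unadjusted p under 0.05, beside 31.6% of all tested probe sets.

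Promoters are shown for the members with the largest rise and the 2 largest falls among those with a single RefSeq window, so that their makeup can be read beside the values. RefSeq (GRCm38.p6) gave windows of 300 bases, from 250 before to 50 after the start, for 47 of the 62 genes. The 250 bases before the start are printed 5′ to 3′ on the strand of the gene, with each GC box, GGGCGG or its reverse complement CCGCCC, in capitals. Cacng2 lies at chr15:78119281-78119530 on the minus strand, Kcnd2 at chr6:21215096-21215345 on the plus strand and Cacna2d1 at chr5:15934441-15934690 on the plus strand.
Cacng2: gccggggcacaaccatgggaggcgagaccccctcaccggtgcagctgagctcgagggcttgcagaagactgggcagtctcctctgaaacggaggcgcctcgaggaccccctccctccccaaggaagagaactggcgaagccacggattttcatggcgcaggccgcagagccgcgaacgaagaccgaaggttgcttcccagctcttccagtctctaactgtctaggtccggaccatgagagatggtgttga
Kcnd2: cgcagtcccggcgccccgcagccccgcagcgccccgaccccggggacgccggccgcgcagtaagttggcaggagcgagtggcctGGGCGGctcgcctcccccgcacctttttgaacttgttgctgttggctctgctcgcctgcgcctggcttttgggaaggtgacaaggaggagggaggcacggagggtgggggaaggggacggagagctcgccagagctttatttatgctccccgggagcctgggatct
Cacna2d1: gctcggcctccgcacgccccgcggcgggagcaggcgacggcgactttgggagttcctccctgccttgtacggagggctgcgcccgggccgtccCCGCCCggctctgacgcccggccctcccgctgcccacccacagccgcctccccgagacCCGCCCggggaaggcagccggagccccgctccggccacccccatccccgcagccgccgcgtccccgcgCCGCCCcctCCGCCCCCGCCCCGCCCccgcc

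The Cacng2 window held no GC box in these letters, that of Kcnd2 held 1, and that of Cacna2d1 held 7, of which 6 lie in the printed stretch. At least 1 GC box was found in 30 of the 47 member genes with a window, or 63.8%, and in 38.2% of all 27025 genes. It was found in 6 of 7 genes that fell, 0 of 1 that rose, 13 of 17 that did not pass and 11 of 22 that were not tested. A TATA box, TATAAA, was in 3 of the 47, or 6.38%, and in 15.7% of all genes. The cAMP response element TGACGTCA was in 0 of 47, against 2.03% of all genes, and the Egr1 motif GCGTGGGCG in 1, against 0.707%. The core of the RE1 silencer element was in 0 of 47, against 0.0407%. Motifs were sought on both strands, and an Egr1 match followed by G also holds a GC box. The median GC content was 60.3% over the 60 member windows and 52.7% over all 32851. A match describes the letters only.

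The 37 members that did not pass the filter on dim probe sets had mean log2 signals from 2.33 to 6.73. They covered 30 genes with no tested probe set and included channels known from other tissues, such as the skeletal muscle genes Cacna1s and Cacng1 and the sensory neuron sodium channels Scn9a and Scn10a. They also included neuronal genes such as Cacna1a and Cacna1e, of P/Q-type and R-type calcium channels, Kcnj3 and Kcnj6, of G protein-gated channels, and Scn3a. Cacna1a had means of 5.99 ± 1.48 and 6.16 ± 1.16 (SD, n = 5 each), and Kcnj3 had 6.71 ± 0.53 and 5.06 ± 1.82. The arrays of the diets overlapped in all 37. With no filter limma called 0 of the 37 (smallest adjusted p = 0.0614, for the second probe set of Kcnq1), and 6 had an unadjusted p under 0.05, all lower in calorie restricted mice. In that fit 3152 of all 12422 probe sets had an unadjusted p under 0.05. A dim probe set here says only that this measurement was near the low end of the array.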

How the data were processed

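The deposited table holds 1 intensity per probe set and array on a linear scale, which the authors made with MAS5, as the submitters' processing notes record without a version. In the deposited intensity values each array had the same trimmed mean. Values under 1 were set to 1 and taken to log2, the 66 control probe sets were left out, and probe sets with a mean below the 40th percentile were dropped, leaving 7453. Diets were compared with lmFit and eBayes in limma 3.58.1 under R 4.3.3, with a trend of variance on mean and Benjamini-Hochberg adjustment over all 7453; a probe set passed at an adjusted p under 0.05. The fit was tested on simulated data. Array measures and probe set gaps were compared with exact two-sided permutation tests over 252 splits. The gaps were chosen after the values were seen.

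Members, lists and alternatives were chosen with earlier results of these data known. RNA quality and spike-in signal were likewise known from earlier work to differ before they were tested. The text names every member past the threshold or without overlap, the 3 others with the smallest p in each channel group, both probe sets of a called gene, and partner genes past the threshold; other members are named after their values were seen to account for each group. Probe sets were named from GEO's platform annotation. Alternatives were quantile normalization, median centring, other filters and floors, array weights, no variance trend, covariates for RNA quality and spike-in signal, a replicate block and the omission of arrays. The replicate numbers name different mice: same-numbered arrays correlated between -0.08 and 0.17 in their deviations, so they were not treated as pairs. Replicates are separate mice per the series' design text. The number of arrays limits the precision. All 75 members were matched to RefSeq by gene number; no positions of probe sets are given.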

Additional observations from a re-analysis of the deposited data

Results flagged for a closer look

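For Scn8a, the signal of control replicate 4, at 9.34 (log2), lay apart from the other 4 control arrays, at 9.59 to 9.67. It was the only flag among 50 groups of 5 arrays examined, the named channel probe sets and the 2 array measures in each diet. Chance alone flags about 1 in 20 such groups.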

How the results depend on the processing

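Under all 23 settings tried, 240 of the 241 values of the 11 probe sets past the threshold kept their direction. The exception was Cacna1g at -0.0070 with RNA quality and spike-in covariates. Probe sets under the filter in a setting have no value there, so Kcnd2 had 18 values and Cacna1g 21. Passing was less steady, from 3 of 23 settings for Cacna1c to 21 of 22 for Kcns2. All settings draw on the same arrays. Of 515 values of named channel probe sets, 83 lost a call, 17 gained one and 19 changed sign, 5 of them by less than the SE of the reported value; the other 396 kept their sign and their side of the threshold. The count that rose, 2, was 4 with each array centred on its median, 4 with array weights, 0 with the filter at the 60th percentile, 1 with the RNA quality covariate and 0 with both covariates. The count that fell, 9, was 5 under quantile normalization, 5 with median centring, 4 with the filter at the 60th percentile, 1 with the RNA quality covariate, 0 with both and 5 without calorie restricted replicates 3 and 5. Leaving out single arrays gave 1 to 4 that rose, 2 to 12 that fell and 268 to 1278 of all probe sets past the threshold. The count of all probe sets, 883, was 333 with the RNA quality covariate and 0 with both. Median centring turned the split of all calls from 306 higher and 577 lower to 575 and 266, and quantile normalization to 321 and 282. The cause was not tested.

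With the replicate block, 540 of all probe sets and 9 channel probe sets passed, 7 of them among the 11. Same-numbered arrays did not deviate together, only 1 array correlated best with its own number, and the block is no paired result.

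Values that had not passed and turned direction with the RNA quality covariate were Hcn3 at 0.21 and the second probe sets of Hcn2 at 0.22, Scn1a at -0.23 and Kcnd2 at -1.14. With both covariates Hcn3 had 0.082, Scn1a -0.53, Kcnd2 -0.88, Kcnab2 1.21 and Kcnj11 1.04. Without calorie restricted replicates 3 and 5 Hcn3 had 0.10, Scn1a -0.038 and Kcnd2 -0.66; without single arrays that Kcnd2 probe set ran from -0.51, without replicate 5, to 0.42. The RNA quality difference ranged from 1.92 to 3.25 and the spike-in difference from 1.77 to 2.09 without single arrays, the former missing the threshold without control replicate 1, 2, 3 or 4 (exact permutation p from 0.0556 to 0.0635). Those tests compared means of groups of unequal size. The diets still did not overlap in RNA quality, at most 0.45 in control and at least 0.78 in calorie restricted arrays. Without single arrays the gap of Hcn2 missed an unadjusted 0.05 in 8 of 10 tests, with exact permutation p up to 0.0873. The number of arrays limits these values, and dim signal those of the probe sets said to lie near the filter.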
